A study of Arabidopsis thaliana with 4 samples.

Results

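Roots of Arabidopsis Col-0, the wild type of the study, were grown for 7 days on 1/2 MS medium that held either the synthetic cytokinin BAP at 50 nM (cytokinin) or no hormone (control), and the 2 RNA-seq libraries made from them are compared here gene by gene. The series holds 4 libraries, 1 per condition. The other pair, grown with 10 μM MeJA and 50 nM BAP (JA/cytokinin) or with 10 μM MeJA alone (JA), is given beside it as the same hormone step in libraries that the comparison did not use. No allele or transgene was involved, and the number of plants behind each library is not given in the sources used here. With 1 library per condition no difference has a replicate check, so no p-value is given and a gene is called higher or lower when its FPKM differs at least 2-fold. FPKM is the number of sequenced fragments scaled to transcript length and to the depth of the library. Of 33565 TAIR10 loci, 22925 had FPKM above 0 in both the cytokinin and the control library, and 22291 in all 4 libraries. Of these 22291 genes, 229 green tissue genes (photosynthesis, chlorophyll, plastid genome and shoot genes) and 3087 further genes with a mean of the 2 libraries under 1 FPKM are described apart. The other 18975 genes are called the main set.

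Cytokinins are adenine-derived hormones that are perceived by histidine kinase receptors. The signal passes as a phosphate through histidine phosphotransfer proteins (AHPs) to type-B response regulators (ARRs), which are transcription factors. Type-B ARRs switch on type-A ARR genes, whose products dampen the response, and cytokinin oxidase (CKX) genes, whose products break the hormone down. In roots, cytokinin is known for limiting meristem size, for patterning the vascular cylinder, where it restricts protoxylem, and for lowering the expression of iron uptake genes.

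In the cytokinin library 666 main set genes were at least 2-fold higher (3.51% of the main set) and 1378 at least 2-fold lower (7.26%) than in the control library. These shares are the reference for the counts of called genes in the lists below. The median log2 ratio of the main set was 0.05, and after the libraries were rescaled to a median of 0, 594 genes were higher and 1463 lower. The sizes of the differences were uneven. At 4-fold 59 genes were higher and 535 lower, at 8-fold 0 were higher and 269 lower, and at 64-fold 51 were lower. Part of these lower genes belonged to a wider green set, defined after the values were seen. Without it 492 were lower at 4-fold, 237 at 8-fold and 35 at 64-fold. As that set was widened by annotation words alone, green tissue genes without such words may remain in these counts. The lowest and highest 10% of the main set lay beyond log2 ratios of -0.74 and 0.55. The depth, estimated from the step that a single fragment makes in low FPKM values, was such that 3 fragments on a transcript of 1 kb gave 0.07995 FPKM in the cytokinin library and 0.0802 FPKM in the control library. The 95% intervals given for genes come from fragment numbers estimated in this way. They describe the error of counting alone, as copies made in amplification are not independent molecules.

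**Figure D1:**
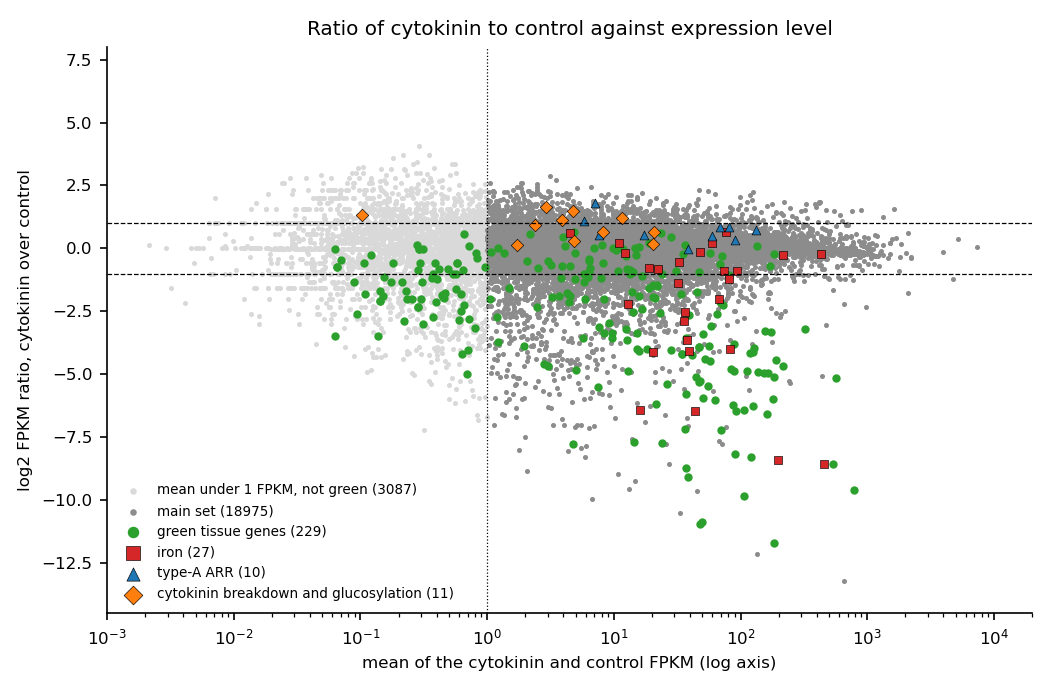
Each point is a gene, with the mean of the cytokinin and control FPKM on a log x axis and the log2 FPKM ratio of cytokinin over control on the y axis. Dashed lines mark 2-fold and the dotted line a mean of 1 FPKM. Among genes above it, no ratio is 8-fold higher, while 269 main set genes, many green tissue genes (green) and 8 iron genes (red) lie at least 8-fold lower. 15 genes, none of the main set, lie outside the axes.

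Of 12 root markers 11 lay within 2-fold between the cytokinin and control libraries, with log2 ratios between -0.63 for WOX5 and 0.81 for GPAT5. The exception was PHO1, at a log2 ratio of -1.53, whose FPKM is given with the phosphate genes. SCR, a transcription factor of the endodermis and its stem cells, had 31.4 FPKM in cytokinin roots and 29.1 FPKM in control roots, PLT1, of the root stem cell niche, 8.01 and 7.77 FPKM, and CASP1, of the Casparian strip, 218 and 243 FPKM. As the libraries were made from whole roots, fewer cells of a type and less RNA per cell cannot be told apart. Shoot genes were present in the control library only at low levels. The YABBY genes YAB1, YAB3 and YAB5, which mark the lower side of leaves, and the stomatal signal gene EPFL9 were listed at 0 in cytokinin roots, against 2.00, 2.497, 2.93 and 5.54 FPKM in control roots. Of 27 shoot and stomata genes 11 were listed at 0 in cytokinin roots and 2 in control roots. The counts that follow leave such genes out. In all libraries 12 had FPKM above 0, 5 of them at least 2-fold lower and 0 higher. Of the 6 with a mean of at least 1 FPKM 1 was lower (median log2 ratio -0.02), and the other 4 calls fell among low-FPKM genes, of which 20.8% were lower in all. The summed FPKM of the 27 was 33.4 in cytokinin roots, 63.2 in control roots, 50.0 in JA/cytokinin roots and 59.5 in JA roots. The part of shoot material in the lower genes described below was not tested.

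Within the signalling pathway, the receptors and carriers of the phosphate mostly lay within 2-fold and the early target genes lay mostly above control. WOL, the receptor also called AHK4 or CRE1, had 50.8 FPKM in cytokinin roots (95% interval of the ratio to control 1.56 to 1.66) and 31.6 FPKM in control roots, a log2 ratio of 0.69. The other receptors were lower in cytokinin roots, with 6.03 FPKM against 10.8 FPKM in control roots for AHK2 and 16.2 FPKM against 21.0 FPKM for AHK3. AHP1, AHP2, AHP3 and AHP5, the phosphotransfer proteins that pass the signal on, had log2 ratios between -0.12 and 0.41. Of the 7 type-B ARRs measured, 6 were within 2-fold. ARR11 was the exception, with 0.861 FPKM in cytokinin roots and 4.04 FPKM in control roots (log2 ratio -2.23). The 6 cytokinin response factors, AP2-type transcription factors downstream of the same phosphorelay, lay within 2-fold, with a median log2 ratio of 0.37.

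AHP6 had the lowest log2 ratio of the main set. It encodes a phosphotransfer protein that lacks the histidine for the phosphate and inhibits cytokinin signalling, and it is known from the protoxylem. The gene (AT1G80100) lies on chromosome 1 between 30133718 and 30134937 (TAIR10.1). It had 0.139 FPKM in cytokinin roots (0.0453 to 0.324), an estimated 5.03 fragments, and 1317 FPKM in control roots (1305 to 1329), a log2 ratio of -13.21. It had 0.578 FPKM in JA/cytokinin roots and 1176 FPKM in JA roots. Both libraries grown with BAP were thus low and both without it high, with no overlap. Only 25 main set genes had a higher FPKM in the control library, a level that is unusual for a regulator of a few cell files, and the FPKM was not checked against reads here. No other annotated gene overlaps it.

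Among the 10 type-A ARRs, 2 were at least 2-fold higher in cytokinin roots, 0 were lower, and the median log2 ratio was 0.64, against 0.05 in the main set. ARR15 (AT1G74890, chromosome 1 from 28131447 to 28133025) had the largest ratio, with 11.05 FPKM in cytokinin roots (10.06 to 12.1) and 3.15 FPKM in control roots (2.63 to 3.74), a log2 ratio of 1.81. It had 3.41 FPKM in JA/cytokinin roots and 0.459 FPKM in JA roots. ARR16 (AT2G40670, chromosome 2 from 16969673 to 16972113) had 7.86 FPKM in cytokinin roots (7.28 to 8.48) and 3.70 FPKM in control roots (3.31 to 4.13), a log2 ratio of 1.09, beside 4.96 FPKM in JA/cytokinin roots and 0.381 FPKM in JA roots. The more abundant members had smaller ratios. ARR4 had 164 FPKM in cytokinin roots and 98.7 FPKM in control roots, ARR3 89.1 and 49.8 FPKM, and ARR8 99.8 and 79.7 FPKM. ARR9 was level, with 38.5 FPKM in cytokinin roots and 38.7 FPKM in control roots, and it was also level at 73.0 FPKM in JA/cytokinin and 71.0 FPKM in JA roots. Without JA 9 of the 10 were above control, and with JA 7 were at least 2-fold higher in JA/cytokinin than in JA roots. ARR6, ARR8 and ARR9 overlap a gene on the other strand, and the strand setting of the authors' counting is not given in the sources used here.

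The promoters of the type-A ARR and CKX genes with the largest ratios are shown because these genes are direct targets of type-B ARRs. Each run holds the 250 bases before the annotated start in TAIR10.1 (RefSeq), written 5′ to 3′ on the strand of the gene, and capitals mark AGATT or its reverse complement AATCT, the core to which the type-B ARR ARR1 binds.
ARR15 (chr1:28133026-28133275, minus strand): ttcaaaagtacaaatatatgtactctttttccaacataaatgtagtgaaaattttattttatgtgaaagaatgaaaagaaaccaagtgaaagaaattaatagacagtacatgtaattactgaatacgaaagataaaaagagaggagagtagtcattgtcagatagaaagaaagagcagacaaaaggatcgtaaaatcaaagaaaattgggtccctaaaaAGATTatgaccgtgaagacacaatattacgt
ARR16 (chr2:16969423-16969672, plus strand): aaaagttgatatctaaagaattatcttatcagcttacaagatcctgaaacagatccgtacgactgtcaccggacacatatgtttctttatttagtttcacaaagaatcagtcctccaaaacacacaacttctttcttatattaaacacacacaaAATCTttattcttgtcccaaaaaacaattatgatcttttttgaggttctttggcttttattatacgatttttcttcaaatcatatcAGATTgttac
CKX1 (chr2:17314162-17314411, plus strand): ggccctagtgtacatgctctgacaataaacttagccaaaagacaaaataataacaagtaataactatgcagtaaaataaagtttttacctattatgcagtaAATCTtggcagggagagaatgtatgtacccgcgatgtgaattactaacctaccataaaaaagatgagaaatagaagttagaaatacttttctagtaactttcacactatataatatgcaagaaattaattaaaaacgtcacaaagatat
CKX3 (chr5:23048293-23048542, minus strand): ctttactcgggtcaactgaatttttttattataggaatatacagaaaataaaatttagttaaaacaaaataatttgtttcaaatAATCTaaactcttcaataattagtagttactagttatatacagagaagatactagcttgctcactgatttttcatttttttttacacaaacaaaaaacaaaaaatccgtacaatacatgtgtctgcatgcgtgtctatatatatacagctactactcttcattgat
Each of the 4 holds the core, ARR16 in 2 places and the others in 1, and in ARR15 its last base lies 27 bases before the start. In all, 7 of 10 type-A ARR promoters and 5 of 7 CKX promoters hold it, against 62.6% of 18811 main set promoters of the same length. It was in 58.9% of promoters of genes at least 2-fold higher with cytokinin and in 62.2% of those at least 2-fold lower. ARR5, with a log2 ratio of 0.84, has none in this window, and CKX5 has none either. So short a word is common, and its presence here is a description and not a binding site.

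Genes for cytokinin breakdown lay above control throughout. Of 11 CKX and glucosyltransferase genes 5 were at least 2-fold higher and 0 lower, beside 3.51% and 7.26% of the main set. All 11 lay above control, with a median log2 ratio of 0.92. CKX1 (AT2G41510, chromosome 2 from 17314412 to 17317354) had 4.41 FPKM in cytokinin roots (4.01 to 4.84) and 1.41 FPKM in control roots (1.18 to 1.66), a log2 ratio of 1.65. CKX3 had 6.96 FPKM in cytokinin roots and 2.51 FPKM in control roots, CKX5 16.1 and 7.03 FPKM, and CKX6 5.38 and 2.45 FPKM. CKX2 was also past 2-fold but at 0.146 FPKM in cytokinin and 0.0586 FPKM in control roots. The zeatin O-glucosyltransferase gene UGT85A1 had 25.5 FPKM in cytokinin roots and 16.02 FPKM in control roots, while UGT76C1 and UGT76C2, which make cytokinin N-glucosides, had log2 ratios of 0.28 and 0.17. CKX1, CKX2, CKX5 and CKX6 overlap antisense genes, as above.

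The genes for making and exporting cytokinin were divided. Of 16 measured genes 7 were at least 2-fold lower and 1 was higher, and 3 of these 7 (IPT5, LOG1 and LOG7) had a mean of at least 1 FPKM. In all 5 lay above control, the median log2 ratio of the 11 genes with a mean of at least 1 FPKM was -0.03, and the summed FPKM was 246 in cytokinin roots and 236 in control roots. IPT5 (AT5G19040, chromosome 5 from 6361776 to 6363713), an isopentenyltransferase for the first step, had 2.64 FPKM in cytokinin roots (2.28 to 3.04) and 11.96 FPKM in control roots (11.2 to 12.8), a log2 ratio of -2.18. IPT7 had 0.130 FPKM in cytokinin roots and 1.58 FPKM in control roots, and IPT3 6.04 and 8.31 FPKM. LOG genes encode the enzymes that release active free bases. LOG1 had 0.605 FPKM in cytokinin roots and 5.75 FPKM in control roots (log2 ratio -3.25), and LOG7, the most abundant of them in control roots, 30.3 and 76.1 FPKM (log2 ratio -1.33). LOG8 had 41.9 FPKM in cytokinin roots and 31.1 FPKM in control roots. The gene at least 2-fold higher was CYP735A2 (AT1G67110, chromosome 1 from 25061673 to 25065446), the hydroxylase that turns isopentenyl cytokinins into trans-zeatin forms. It had 43.1 FPKM in cytokinin roots (41.6 to 44.6) and 15.5 FPKM in control roots (14.6 to 16.4), a log2 ratio of 1.48, and 40.7 FPKM in JA/cytokinin roots against 1.11 FPKM in JA roots. ABCG14, which loads cytokinin into the xylem for the shoot, had 92.5 FPKM in cytokinin roots and 55.7 FPKM in control roots.

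Other genes known to answer to cytokinin were mixed. LBD3 (AT1G16530, chromosome 1 from 5651268 to 5652883), a LOB-domain transcription factor also called ASL9, had 22.2 FPKM in cytokinin roots, 5.14 FPKM in control roots, 25.8 FPKM in JA/cytokinin roots and 0.746 FPKM in JA roots, so that both libraries with BAP were above both without it. ST4B, a sulfotransferase, had 668 FPKM in cytokinin roots and 187 FPKM in control roots (log2 ratio 1.83), with 467 FPKM in JA/cytokinin and 42.8 FPKM in JA roots. EXPA1, a cell wall expansin, had 30.9 FPKM in cytokinin roots and 15.4 FPKM in control roots, just under 2-fold. HEC1, a bHLH gene, had 0.0229 FPKM in cytokinin roots, an estimated 1.04 fragments, and 1.103 FPKM in control roots, and GATA21, a greening gene, 0.0869 and 0.683 FPKM.

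**Figure D2:**
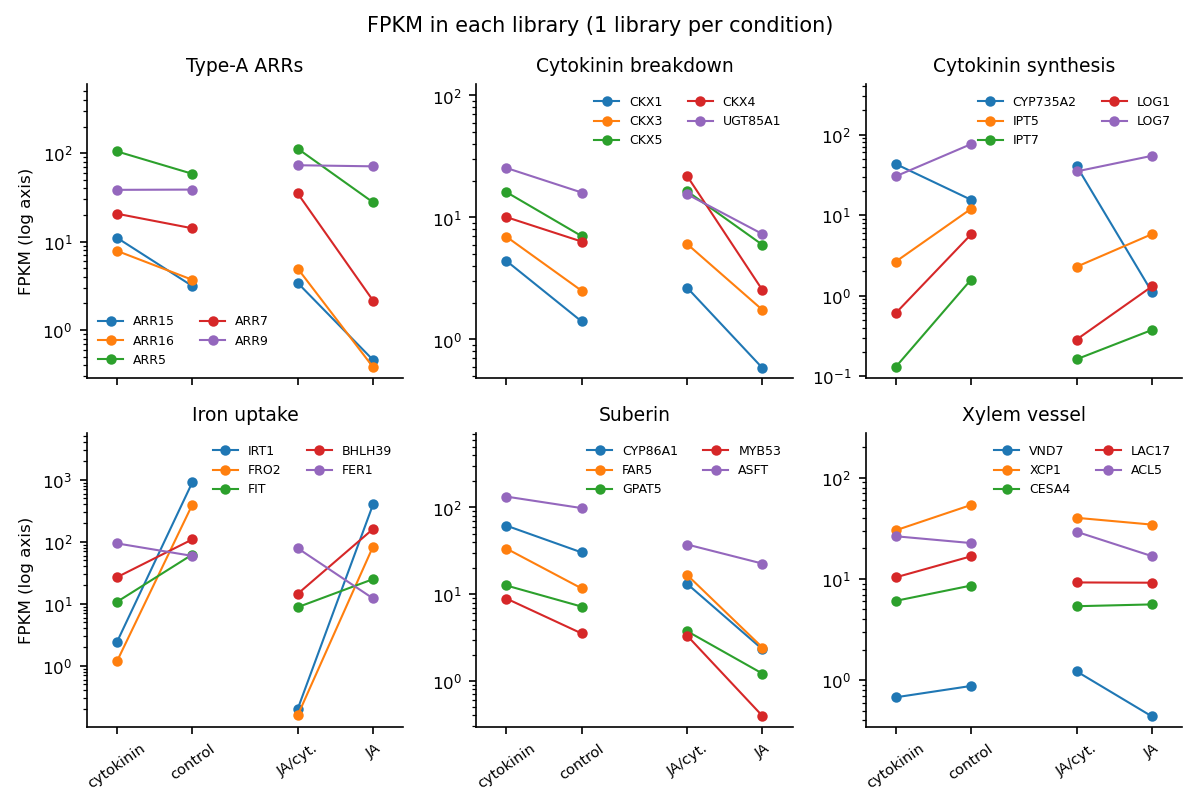
FPKM of 5 genes in each of 6 groups on a log y axis, with the cytokinin library left of control and JA/cytokinin left of JA, 1 library each and a line joining each pair. ARR15, CKX1 and CYP735A2 slope down to the library without BAP in both pairs, and IRT1 and IPT5 slope up. XCP1 is lower with cytokinin than in control and higher with JA/cytokinin than with JA.

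Outside the pathway, the 12 highest ratios among the 15355 main set genes with at least 5 FPKM in either library were led by IAA5, an auxin-induced Aux/IAA repressor. IAA5 (AT1G15580, chromosome 1 from 5365512 to 5366497) had 5.56 FPKM in cytokinin roots and 0.763 FPKM in control roots, a ratio of 7.28 (4.62 to 12.1), and 3.103 FPKM in JA/cytokinin roots against 0.271 FPKM in JA roots. Triterpene genes were among the 12. MRN1, the marneral synthase, had 78.8 FPKM in cytokinin roots and 15.8 FPKM in control roots, and PEN3 (AT5G36150), a tirucalladienol synthase, 11.1 and 2.03 FPKM. AT5G37990, annotated as a methyltransferase, had 208 FPKM in cytokinin roots, 44.6 FPKM in control roots, 99.1 FPKM in JA/cytokinin roots and 4.67 FPKM in JA roots. AT1G77520, annotated as an O-methyltransferase, had 27.2 FPKM in cytokinin roots and 5.92 FPKM in control roots, and NAC042, a NAC transcription factor, 5.85 and 1.29 FPKM. The others were AT2G27535, AT3G50610, AT5G04120, GDU6, AT1G75600 and AT4G12735, with log2 ratios between 2.203 and 2.72. GDU6, a glutamine dumper, was higher with cytokinin alone (5.04 FPKM against 1.04 FPKM in control roots) and had 2.03 FPKM in JA/cytokinin roots against 3.63 FPKM in JA roots. By difference in FPKM, the highest genes were AT5G26260, a TRAF-like gene with 2423 FPKM in cytokinin roots and 824 FPKM in control roots, and PYK10, the myrosinase of root ER bodies, with 5928 and 4563 FPKM. PBP1, which binds PYK10, had 2555 FPKM in cytokinin roots and 1653 FPKM in control roots, AT2G43535, a knottin, 1888 and 785 FPKM, and AT4G23670, a lipid transport family gene, 1331 and 461 FPKM.

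At the other end, 4 of the 12 lowest main set genes, CA1, CA2, PnsB4 and FBA1, encode carbonic anhydrases, a subunit of the chloroplast NDH complex and a plastid aldolase. They belong to green tissue by function although the annotation words used did not catch them. The other genes of the 12 were judged by lists and annotation words alone, so more of them may belong to green tissue. GASA6, LrgB, AT3G62550 and AT1G21500 had 1.098 to 1.56 estimated fragments in cytokinin roots, against 66.4, 13.3, 26.5 and 29.2 FPKM in control roots. Of these, GASA6 was also low in JA roots, with 0.171 FPKM, and in JA/cytokinin roots, with 0.0403 FPKM, so that it was high in the control library alone. The remaining genes of the 12 were AHP6, the iron genes IRT1 and FRO2, and AT1G29670, a GDSL lipase with 0.0378 FPKM in cytokinin and 11.9 FPKM in control roots. Among the next lowest outside a wider green set, defined after the values were seen, SKOR, the potassium channel that loads the xylem, had 0.0901 FPKM in cytokinin roots (log2 ratio -7.12) and 12.6 FPKM in control roots, with 0.0327 FPKM in JA/cytokinin and 7.71 FPKM in JA roots. The peroxidase gene AT5G19890 had 0.234 FPKM in cytokinin roots and 51.7 FPKM in control roots, and its relative AT1G49570 0.582 and 76.8 FPKM. With JA they were far higher in both libraries, at 55.3 FPKM in JA/cytokinin and 846 FPKM in JA roots for AT5G19890 and at 66.3 and 2107 FPKM for AT1G49570. By difference in FPKM, the largest lower values were those of the metallothionein gene MT1A, with 2861 FPKM in cytokinin roots and 6692 FPKM in control roots, AT2G01021, with 948 and 3241 FPKM, AHP6, the germin-like gene GLP5, with 330 and 1641 FPKM, and AT1G54410, a dehydrin gene, with 1248 and 2301 FPKM. MT1A lies inside AT1G07590 on the same strand, which had 399 FPKM in cytokinin roots and 938 FPKM in control roots, so that reads of the pair cannot be told apart here. AT2G01021 spans chromosome 2 from 6571 to 6672, less than the estimated fragment length of 160 bases. Its FPKM therefore depends on how the authors' counting corrected for length, which is not known. GLP5 had 293 FPKM in JA/cytokinin roots and 710 FPKM in JA roots.

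Iron acquisition genes had the lowest median of the lists outside green tissue. Of 27 measured iron genes 14 were at least 2-fold lower in cytokinin roots and 0 higher, beside 7.26% and 3.51% of the main set, with a median log2 ratio of -1.20, and their summed FPKM over 30 listed genes was 1146 in cytokinin roots and 3549 in control roots. IRT1 (AT4G19690, chromosome 4 from 10707344 to 10709015), the transporter that takes up ferrous iron, had 2.42 FPKM in cytokinin roots (2.04 to 2.85) and 906 FPKM in control roots (898 to 914), and 0.202 FPKM in JA/cytokinin roots against 400 FPKM in JA roots. FRO2 (AT1G01580, chromosome 1 from 208995 to 213082), the ferric reductase that supplies it, had 1.18 FPKM in cytokinin roots and 396 FPKM in control roots, and 0.159 FPKM in JA/cytokinin roots against 83.9 FPKM in JA roots. For both genes the 2 libraries grown with BAP were low and the 2 without it high.

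The iron regulators were lower too, by smaller ratios. FIT, the bHLH factor that drives both genes, had 10.7 FPKM in cytokinin roots and 62.2 FPKM in control roots (log2 ratio -2.54). Its partners ran from log2 ratios of -2.03 for BHLH39, with 26.8 FPKM in cytokinin and 109 FPKM in control roots, to -6.47 for BHLH100, with 0.978 and 87.0 FPKM. The nicotianamine synthase genes NAS1 and NAS2, for a metal chelator, had 9.70 and 5.64 FPKM in cytokinin roots and 154 and 70.5 FPKM in control roots. IREG2, a vacuolar metal transporter, had 0.378 FPKM in cytokinin roots and 32.1 FPKM in control roots. CYP82C4, a cytochrome P450 of the same response, was listed at 0 in cytokinin and JA/cytokinin roots, against 175 FPKM in control and 24.6 FPKM in JA roots, and MYB72, a regulator of coumarin release, was listed at 0 against 1.93 FPKM in control roots. Other members lay closer to control. The ferritin genes FER1, FER2, FER3 and FER4, for iron storage, had log2 ratios between -0.18 and 0.67 without JA and between 1.77 and 2.69 with JA. PYE and BTS, which restrain the iron response, had log2 ratios of -0.76 and -0.56, and AHA2, the proton pump that acidifies the root surface, had 401 FPKM in cytokinin roots and 463 FPKM in control roots. NAS4 had 5.47 FPKM in cytokinin and 3.598 FPKM in control roots, but 8.47 FPKM in JA/cytokinin and 76.8 FPKM in JA roots.

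**Figure D3:**
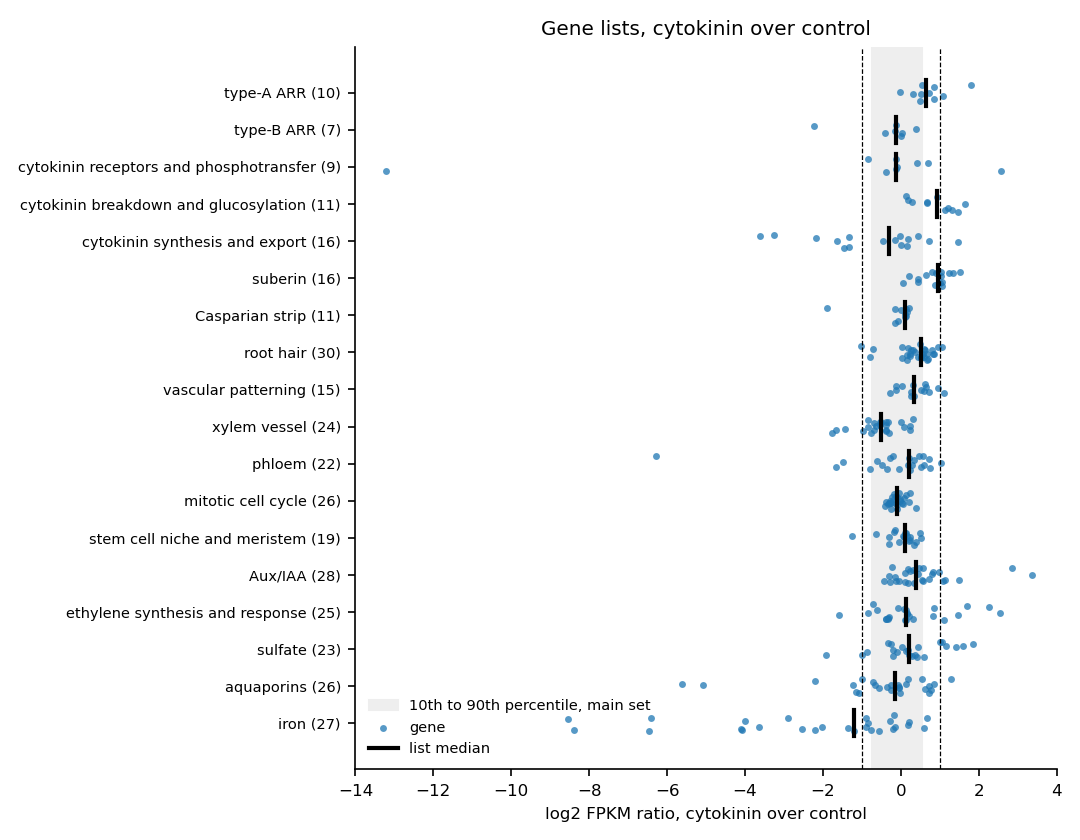
Log2 FPKM ratio of cytokinin over control for the genes of 18 lists, with the number measured in brackets, a black bar at the list median and a grey band from the 10th to the 90th percentile of the main set (-0.74 to 0.55). The medians of suberin (0.94) and cytokinin breakdown (0.92) lie above the band and that of iron (-1.20) below it.

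Water channel genes were lower by sum. Of 26 aquaporin genes 6 were at least 2-fold lower and 1 higher, beside 7.26% and 3.51% of the main set, the median log2 ratio was -0.16, and their summed FPKM was 6697 in cytokinin roots and 10860 in control roots. The tonoplast aquaporin TIP2;2 had 25.4 FPKM in cytokinin roots and 853 FPKM in control roots (log2 ratio -5.07), and 3.72 FPKM in JA/cytokinin roots against 120 FPKM in JA roots. Its close relative TIP2;3 had 4.66 FPKM in cytokinin roots and 230 FPKM in control roots, while TIP2;1 had 441 and 269 FPKM. Of the plasma membrane aquaporins, PIP1;1 had 233 FPKM in cytokinin roots and 1080 FPKM in control roots. Members of this family are similar in sequence, and how the authors' counting shared reads among them is not known.

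Suberin genes were higher in cytokinin roots, or close to level, throughout the list. Suberin is the lipid polymer laid down on endodermal cell walls as the root matures. Of 16 measured genes 7 were at least 2-fold higher and 0 lower, beside 3.51% and 7.26% of the main set, and the median log2 ratio was 0.94. All 16 lay above control as deposited, KCS20 by a log2 ratio of 0.05 that falls below 0 when the libraries are rescaled. CYP86A1, a fatty acid hydroxylase, had 61.8 FPKM in cytokinin roots and 30.3 FPKM in control roots, and CYP86B1, for longer chains, 25.3 and 10.8 FPKM. FAR5, a fatty acyl reductase, had 33.6 FPKM in cytokinin roots and 11.7 FPKM in control roots (log2 ratio 1.53), and MYB53, a transcription factor, 8.91 and 3.52 FPKM. GPAT5, the acyltransferase often used as a suberin marker, had 12.6 FPKM in cytokinin roots and 7.19 FPKM in control roots, under 2-fold. In JA/cytokinin roots 12 of the 16 were at least 2-fold above JA roots, although their summed FPKM was 196 in JA/cytokinin and 90.6 in JA roots, against 508 in cytokinin and 331 in control roots. The Casparian strip genes, which act earlier in the same cell layer, did not share this, with a median log2 ratio of 0.11, beside 0.05 in the main set. At least 2-fold, 1 of 11 was lower and 0 higher, beside 7.26% and 3.51% of the main set. The lower gene was CASP5, with 7.43 FPKM in cytokinin roots and 27.7 FPKM in control roots, whereas CASP2 had 104 and 96.4 FPKM.

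In the vascular cylinder the xylem genes were lower by a small amount. Of 24 xylem vessel genes 20 lay below control, with a median log2 ratio of -0.52, beside 0.05 in the main set. At least 2-fold, 3 were lower and 0 higher, beside 7.26% and 3.51% of the main set. Of the 19 with a mean of at least 1 FPKM 2 were lower. The cysteine protease genes XCP1 and XCP2, of vessel cell death, had 30.3 and 23.9 FPKM in cytokinin roots and 53.8 and 47.2 FPKM in control roots. The secondary wall cellulose synthase genes CESA4, CESA7 and CESA8 had log2 ratios of -0.50, -0.31 and -0.54, and the laccase gene LAC17 -0.69. VND7, the master regulator of protoxylem, had 0.678 FPKM in cytokinin roots and 0.878 FPKM in control roots, and VND4 0.642 and 2.18 FPKM. The pattern was not shared by the other pair of libraries, where the median log2 ratio of JA/cytokinin over JA was 0.14, with 2 genes at least 2-fold higher and 0 lower. ACL5, the thermospermine synthase that holds xylem differentiation back, had 26.4 FPKM in cytokinin roots and 22.6 FPKM in control roots.

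Procambial and phloem genes were not lower as lists. Of 15 vascular patterning genes 12 lay above control, with a median log2 ratio of 0.33, beside 0.05 in the main set. Of these 1 was at least 2-fold higher, beside 3.51% of the main set. WOX4, a homeobox gene of vascular stem cells, had 4.38 FPKM in cytokinin roots and 2.02 FPKM in control roots, and TDR, the receptor upstream of it, 9.60 and 5.85 FPKM. Both were also higher in JA/cytokinin than in JA roots, at 13.2 against 2.89 FPKM and 13.4 against 7.79 FPKM. Of 22 phloem genes 1 was at least 2-fold higher and 3 were lower, beside 3.51% and 7.26% of the main set. BAM3, the receptor of CLE45 in early phloem, had 40.7 FPKM in cytokinin roots and 19.9 FPKM in control roots. SWEET12, a sucrose exporter, had 0.238 FPKM in cytokinin roots and 18.5 FPKM in control roots (log2 ratio -6.28), and 0.215 FPKM in JA/cytokinin roots against 12.6 FPKM in JA roots, while SUC2, the sucrose loader of companion cells, had 9.01 and 12.7 FPKM in cytokinin and control roots.

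Root hair genes lay above control by less than 2-fold in most cases. Of 30 genes 27 lay above control, with a median log2 ratio of 0.51, beside 0.05 in the main set. At least 2-fold, 1 was higher and 1 lower, beside 3.51% and 7.26% of the main set. RHS8 and SCN1, at log2 ratios of 0.03 and 0.04, fall below control when the libraries are rescaled. EXPA7 and EXPA18, root hair expansins, had 146 and 133 FPKM in cytokinin roots and 101.4 and 83.7 FPKM in control roots. PRP3, a wall protein, had 629 FPKM in cytokinin roots and 385 FPKM in control roots, and RHS18 141 and 68.2 FPKM. RSL2, a bHLH factor of hair growth, was the lower gene, with 3.47 FPKM in cytokinin roots and 7.09 FPKM in control roots. In the libraries with JA the median log2 ratio of the list was -0.04. The 12 epidermal cell fate genes, which set which cells bear hairs, all lay within 2-fold, with a median log2 ratio of 0.19.

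Genes of dividing cells were close to level. None of 26 mitotic genes passed 2-fold in either direction, against 3.51% higher and 7.26% lower in the main set, and their median log2 ratio was -0.11 without JA and 0.29 with JA. CYCB1;1 had 9.33 FPKM in cytokinin roots and 10.6 FPKM in control roots, and the syntaxin gene KNOLLE, of the cell plate, 33.6 and 40.7 FPKM. CYCD3;1, a G1 cyclin known to answer to cytokinin, had 18.5 FPKM in cytokinin roots and 10.9 FPKM in control roots, with 35.9 FPKM in JA/cytokinin and 11.9 FPKM in JA roots. Of 20 G1 cyclin and cell cycle inhibitor genes 0 were 2-fold higher and 1 was lower, beside 3.51% and 7.26% of the main set. The lower gene was CYCD1;1, with 4.28 FPKM in cytokinin roots and 10.6 FPKM in control roots. In the meristem list 18 of 19 genes were within 2-fold. RGF1, a peptide gene of the stem cell niche, was lower, with 0.693 FPKM in cytokinin roots and 1.65 FPKM in control roots, and WOX5, of the quiescent centre, had 1.54 and 2.38 FPKM.

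Of the other hormones, the Aux/IAA and ethylene lists held more higher than lower genes. Of 28 Aux/IAA genes, with a median log2 ratio of 0.39, 5 were at least 2-fold higher and 0 lower, beside 3.51% and 7.26% of the main set. Beside IAA5 the higher genes were IAA6 and IAA32, at 1.03 and 0.466 FPKM or less, IAA19, with 18.3 FPKM in cytokinin roots and 6.54 FPKM in control roots, and IAA26, with 34.8 and 15.9 FPKM. Of the 21 auxin synthesis and conjugation genes 2 were at least 2-fold higher and 2 lower, beside 3.51% and 7.26% of the main set. The auxin synthesis genes YUC5 and YUC9 had 3.36 and 6.79 FPKM in cytokinin roots and 1.23 and 2.66 FPKM in control roots. Of 25 ethylene genes 5 were at least 2-fold higher and 1 lower, beside 3.51% and 7.26% of the main set. Of the 22 with a mean of at least 1 FPKM 3 were higher. The other higher calls, ACS8 and ACS9, fell among low-FPKM genes, of which 15.9% were higher in all. All 7 ACS genes measured, for the step that limits ethylene synthesis, lay above control and 5 were at least 2-fold higher. The 1 listed ethylene gene left out as not measured, also an ACS gene, was at 0 in cytokinin roots and above 0 in control roots. ACS11 had 17.9 FPKM in cytokinin roots and 5.54 FPKM in control roots, ACS6 26.3 and 9.43 FPKM, and ACS7 10.5 and 4.86 FPKM, while ACS8 and ACS9 were at 1.44 and 1.65 FPKM in cytokinin roots and 0.300 and 0.282 FPKM in control roots. ACO4, an oxidase gene for the last step, had 15.6 FPKM in cytokinin roots and 47.3 FPKM in control roots. The receptor and EIN3 family genes of the same list were within 2-fold. Gibberellin genes were divided, with GA2OX2 and GA2OX8, which inactivate the hormone, and GA20OX1, which makes it, at least 2-fold higher, and GA20OX2, GA2OX4 and the receptor gene GID1C lower.

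Jasmonate and nutrient lists held both higher and lower genes. JAZ10, a repressor that reports jasmonate signalling, had 6.85 FPKM in cytokinin roots and 2.59 FPKM in control roots without JA, but 260 FPKM in JA/cytokinin roots and 449 FPKM in JA roots. JAZ9 had 2.23 FPKM in cytokinin roots and 8.09 FPKM in control roots. VSP1, a storage protein induced by jasmonate, had 40.8 FPKM in cytokinin roots and 10.99 FPKM in control roots, while AOC1, a jasmonate synthesis gene, had 0.105 FPKM in cytokinin roots and 2.298 FPKM in control roots. MYC2, the transcription factor at the head of the pathway, was within 2-fold, at 55.7 FPKM in cytokinin and 36.1 FPKM in control roots. In the sulfate list 6 of 23 genes were at least 2-fold higher and 2 lower, beside 3.51% and 7.26% of the main set, with a median log2 ratio of 0.21. In JA/cytokinin against JA roots 2 were higher and 8 lower, with a median of -0.83. The sulfur deficiency markers LSU1, LSU2, LSU3 and LSU4 had log2 ratios between 1.01 and 1.42, and APS4, an ATP sulfurylase, had 33.3 FPKM in cytokinin roots and 125 FPKM in control roots. Among phosphate genes, PHO1 and PHO2, which govern loading of phosphate into the xylem, had 33.0 and 4.84 FPKM in cytokinin roots and 95.2 and 34.5 FPKM in control roots, and RNS1, a ribonuclease, had 14.8 and 3.28 FPKM. Of the nitrogen genes, the nitrate loader NPF7.3 had 50.9 FPKM in cytokinin roots and 109 FPKM in control roots.

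No auxin transporter gene measured was past 2-fold. The 7 PIN efflux carrier genes measured were all above control and all within 2-fold, with a median log2 ratio of 0.36. PIN4, a carrier of the root tip, had 36.4 FPKM in cytokinin roots and 18.3 FPKM in control roots, and PIN7, of the vascular cylinder and root cap, 32.5 and 18.3 FPKM. The other 11 auxin transport genes had a median log2 ratio of 0.37 and were also within 2-fold, 9 above control and LAX1 and ABCB21 below, with 122 FPKM in cytokinin roots and 70.8 FPKM in control roots for the transporter gene ABCB4. Among 17 lateral root genes 3 were at least 2-fold higher and 0 lower, beside 3.51% and 7.26% of the main set. Of the 12 with a mean of at least 1 FPKM 1 was higher. The other calls fell among low-FPKM genes, of which 15.9% were higher in all. MAKR4, of the step that positions lateral roots, had 7.72 FPKM in cytokinin roots and 3.74 FPKM in control roots, while LBD33 and IDA were at 0.646 and 1.37 FPKM in cytokinin roots and 0.216 and 0.298 FPKM in control roots. LBD16, a regulator of the founder cells, had 3.55 FPKM in cytokinin roots and 4.43 FPKM in control roots.

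Flavonoid genes for the early steps lay above control, and several clock genes below. The chalcone synthase gene TT4 had 1388 FPKM in cytokinin roots and 989 FPKM in control roots, and F3H, a hydroxylase of the same pathway, 413 and 209 FPKM. The ligase gene 4CL3 was the 1 member at least 2-fold higher, with 60.6 FPKM in cytokinin roots and 27.0 FPKM in control roots, and 1 of the 14 measured members was lower. In both libraries with JA these genes were lower, TT4 having 256 FPKM in JA/cytokinin and 172 FPKM in JA roots. Of 15 clock genes 5 were at least 2-fold lower and 0 higher, beside 7.26% and 3.51% of the main set. FKF1, an evening photoreceptor, had 1.43 FPKM in cytokinin roots and 7.10 FPKM in control roots, PRR5 3.95 and 12.8 FPKM, PRR7 6.35 and 17.8 FPKM, and ELF4 63.0 and 130 FPKM. The fifth, CAB2, is the antenna gene LHCB1.1 of the green tissue set. The morning genes CCA1 and LHY had log2 ratios of 0.42 and 0.61. Whether the roots were collected at the same hour is not given in the sources used here. Of 13 pathogen response genes 1 was at least 2-fold higher and 3 were lower, beside 3.51% and 7.26% of the main set. Of the 11 with a mean of at least 1 FPKM 1 was higher and 1 lower. The other lower calls fell among low-FPKM genes, of which 20.8% were lower in all. WRKY70, a transcription factor of salicylate defence, had 2.11 FPKM in cytokinin roots and 9.73 FPKM in control roots.

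Green tissue genes were lower in cytokinin roots with no gene past 2-fold in the other direction. Of 229 measured genes 158 were at least 2-fold lower (69%) and 0 higher, and the median log2 ratio was -1.98. Among the 229, 66 had a mean under 1 FPKM, and 42 of these were at least 2-fold lower. Their summed FPKM made up 0.225% of all FPKM in cytokinin roots, 2.07% in control roots, 0.187% in JA/cytokinin roots and 0.518% in JA roots. In the list of light-harvesting, photosystem and Rubisco genes all 47 measured members were lower, with a median log2 ratio of -4.95. LHCB1.1, an antenna protein, had 0.109 FPKM in cytokinin roots and 366 FPKM in control roots, with 0.0587 FPKM in JA/cytokinin and 6.35 FPKM in JA roots, and PSBR, of photosystem II, had 63.5 FPKM in cytokinin roots and 579 FPKM in control roots. The Rubisco genes RBCS1B, RBCS2B and RBCS3B were listed at 0 in cytokinin roots, against 280, 291 and 746 FPKM in control roots.

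The green groups differed in size. Of 16 Calvin cycle and photorespiration genes 12 were lower, but TKL1, a transketolase, had 172 FPKM in cytokinin roots and 198 FPKM in control roots, and GLDP2, of the glycine cleavage system, 138 and 130 FPKM. Of 18 chlorophyll synthesis and greening genes 11 were lower. CRD1, a cyclase of the pathway, had 12.5 FPKM in cytokinin roots and 105 FPKM in control roots, whereas HEMA1, for the first committed step, had 16.2 and 15.6 FPKM. HY5, a light-response factor, had 54.4 FPKM in cytokinin roots and 61.1 FPKM in control roots. The 65 measured plastid-encoded genes had a median log2 ratio of -1.71 and 43 were lower, while in the libraries with JA the median was -0.08 and 8 were lower. The JA library was itself low in green tissue FPKM, and 99 of the 229 genes were at least 2-fold lower in JA/cytokinin than in JA roots (43.2%) and 5 higher (2.18%).

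**Figure D4:**
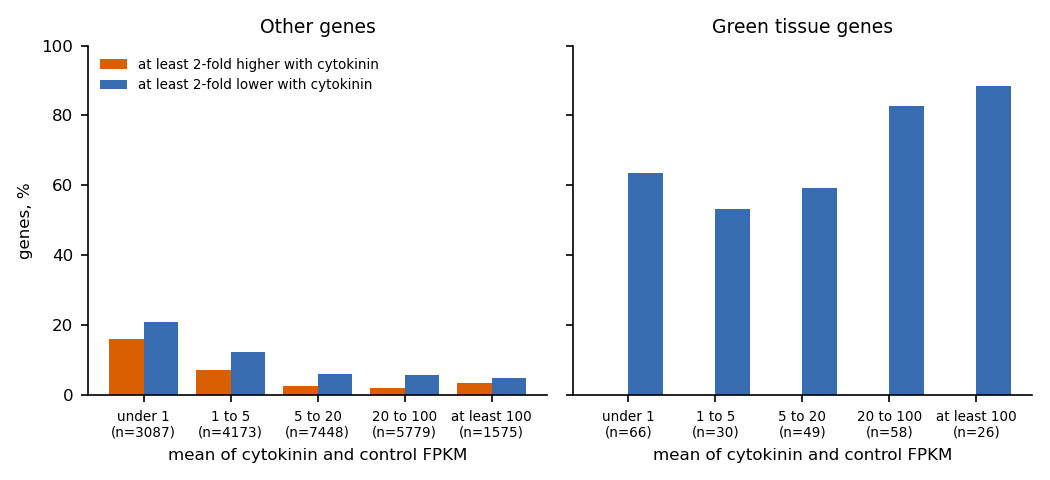
Share of genes at least 2-fold higher (orange) or lower (blue) with cytokinin than in control, by the mean FPKM of the 2 libraries, for genes outside the green tissue set (left) and green tissue genes (right). On the left the lower share falls with FPKM throughout. The higher share there falls to 2.03% at 20 to 100 FPKM and is 3.43% at 100 FPKM or more. Among green tissue genes 0 are higher at any level and 88.5% are lower at 100 FPKM or more.

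Low-FPKM genes passed 2-fold far more often. Of the 3087 genes under a mean of 1 FPKM, 491 were at least 2-fold higher (15.9%) and 641 lower (20.8%), and the median control library count was an estimated 15.2 fragments. In 602 of them 1 of the 2 libraries held 3 or fewer estimated fragments. From 1 to 5 FPKM 7.26% were higher and 12.4% lower, from 5 to 20 FPKM 2.58% and 6.14%, from 20 to 100 FPKM 2.03% and 5.71%, and at 100 FPKM or more 3.43% and 4.76%. AHP4, a phosphotransfer protein gene of the low group, had 0.585 FPKM in cytokinin roots and 0.0980 FPKM in control roots, but 1.18 FPKM in JA/cytokinin roots and 16.4 FPKM in JA roots. A value of 0 is a separate case. In 57 genes cytokinin was listed at 0 beside at least 5 FPKM in control, 10 of them green tissue genes, and in 10 genes the reverse held. The 57 genes include TGG1, a myrosinase of leaves and stomata with 41.5 FPKM in control roots, and CLE1, a root peptide gene with 19.2 FPKM.

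The cytokinin step was then read in the libraries with JA, which share no library with cytokinin and control. In the main set 6.24% of genes were at least 2-fold higher and 6.85% lower in JA/cytokinin than in JA roots. Of the 666 genes higher without JA, 383 were also at least 2-fold higher with JA (57.5%), and 29 were lower. Of the 1378 lower genes, 851 were also at least 2-fold lower (61.8%), and 25 were higher. The median log2 ratio of the 1378 was -1.70 without JA and -1.25 with JA, and that of the 666 was 1.32 and 1.22. Of the 269 genes at least 8-fold lower without JA, 233 were at least 2-fold and 129 at least 8-fold lower with JA. CYP735A2 and LBD3 had log2 ratios of 5.198 and 5.11 with JA, against 1.48 and 2.11 without, and their FPKM in JA roots was below that in control roots. MRN1 was level with JA, at 162 FPKM in JA/cytokinin and 134 FPKM in JA roots. Whether the cytokinin step differed between the pairs was not tested, as each has 1 library per condition.

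**Figure D5:**
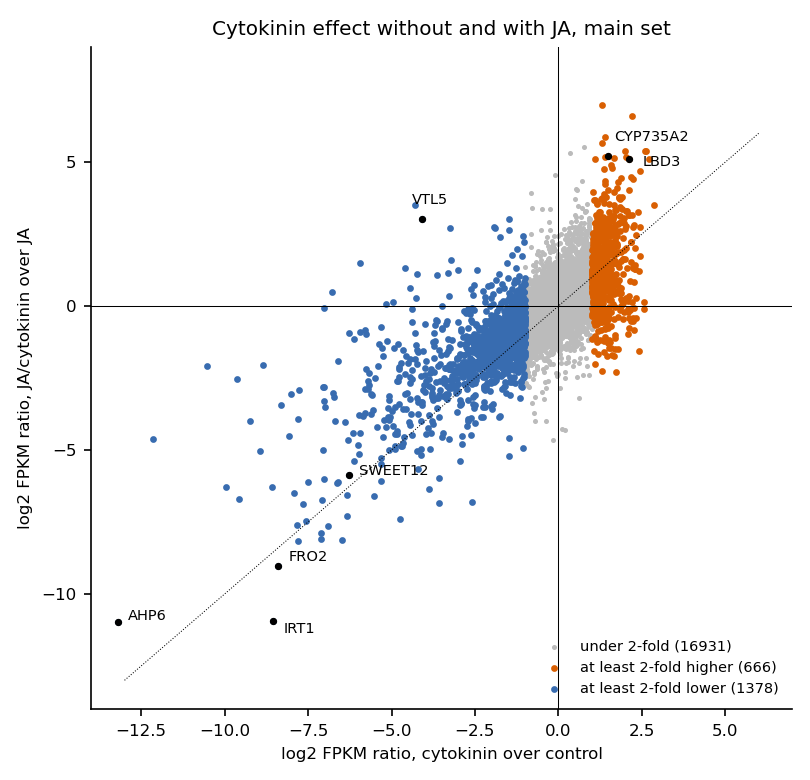
Each point is a main set gene, with the log2 FPKM ratio of cytokinin over control on the x axis and of JA/cytokinin over JA on the y axis, and a dotted line where both are equal. Genes at least 2-fold higher (orange) or lower (blue) without JA lie mostly on the same side with JA (564 of 666 and 1263 of 1378), beside 54.2% of the main set above 0 with JA and 45.8% below. AHP6, IRT1 and FRO2 are at the lower left, and VTL5 lies above 0 on the y axis only.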

How the data were processed

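PolyA-selected libraries were made by the authors with a TruSeq RNA kit from root total RNA and sequenced from both ends on an Illumina HiSeq. The authors deposited FPKM per TAIR10 gene from Cufflinks, and the submitters' processing notes name Bowtie. Mapping settings, versions and strand setting are not given in the sources used here. The authors also deposited read counts per library, 98605532 for cytokinin, 98961424 for control, 115141812 for JA/cytokinin and 103814650 for JA, and unlabelled percent columns that were not used here.

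Ratios are log2 ratios of deposited FPKM without pseudocount, taken where a gene was above 0 in each of the 4 libraries. A gene counted as called from 2-fold, and no test was run. Fragment numbers were estimated from FPKM, exon length and a depth read from the FPKM steps of 16011 single-transcript genes, of whose low values 59.3% to 61.2% fell within 10% of a whole number, and exact Poisson or binomial intervals followed. Exon length was reduced by the fragment length and held at a set minimum, so fragment numbers of very short transcripts are not reliable. Loci were matched to RefSeq TAIR10.1 for names, coordinates and promoters. Of 765 members of 38 lists, 28 had no unique locus.

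Named genes are list members past 2-fold or showing a list's range, the 12 highest and 12 lowest ratios with at least 5 FPKM in either library, the 5 largest FPKM differences each way, and genes the study names. Members and lists were chosen with earlier results of these data known. Alternatives were pseudocounts, filters, thresholds, and libraries rescaled to the median of the ratios or to a mean trimmed by 30% of log ratios and 5% of abundance. Code was tested on simulated data, and the software was scipy 1.17.1, pandas 2.3.3 and numpy 2.4.6 under Python 3.11.15, with figures drawn in matplotlib 3.10.9.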

Additional observations from a re-analysis of the deposited data

Results flagged for a closer look

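Among 562 named or listed genes of the main set, 4 differed at least 2-fold in opposite directions without and with JA. The difference between the pairs was not tested, as each condition has 1 library. VTL5, a nodulin-like gene of the vacuolar iron transporter family, had 4.39 FPKM in cytokinin roots and 74.7 FPKM in control roots, but 2.91 FPKM in JA/cytokinin roots and 0.357 FPKM in JA roots. Its log2 ratios were -4.09 and 3.03, a difference of -7.12, and the JA value rests on an estimated 14.3 fragments. SWEET11, a sucrose exporter gene, had 6.15 FPKM in cytokinin roots and 17.1 FPKM in control roots, with 2.27 FPKM in JA/cytokinin roots and 0.367 FPKM in JA roots (log2 ratios -1.48 and 2.63, a difference of -4.11). The locus AT2G01021 had 948 FPKM in cytokinin roots and 3241 FPKM in control roots, with 11040 FPKM in JA/cytokinin roots and 5112 FPKM in JA roots (log2 ratios -1.77 and 1.11, a difference of -2.88). This locus is shorter than the estimated fragment length of 160 bases, so its values are uncertain. LSU3, a sulfur deficiency marker, had the opposite order, with 15.8 FPKM in cytokinin roots and 7.86 FPKM in control roots, and 21.5 FPKM in JA/cytokinin roots and 47.0 FPKM in JA roots (log2 ratios 1.01 and -1.13, a difference of 2.14).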

How the results depend on the processing

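The 666 higher and 1378 lower genes depended most on the threshold and on low values. At 1.5-fold 1734 were higher and 2353 lower, and at 3-fold 167 and 760. With all low-FPKM genes kept, 1157 were higher and 2019 lower, and with a mean of at least 5 FPKM 363 and 862. A pseudocount of 1 FPKM left 418 higher and 1126 lower. Under a pseudocount of 0.1 FPKM, either rescaling, inclusion of green tissue genes or of genes at 0 in a JA library, the higher count lay between 594 and 671 and the lower between 1344 and 1494. A wider green set, chosen after seeing the data, left 665 higher and 1295 lower. The medians of all 38 lists kept their direction under both pseudocounts and both rescalings, as did each of the 248 genes examined singly, of which 192 of 240 past 2-fold remained so with a pseudocount of 1 FPKM. No paired analysis was possible because replication is absent, and no library could be left out. Depth limits the genes with few fragments in either library, whose ratios are not stable.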

Other observations

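Copper and superoxide dismutase genes, a list chosen after the values were seen, were divided in the cytokinin library. Of 17 measured genes of 20 listed 4 were at least 2-fold higher and 2 lower, beside 3.51% and 7.26% of the main set. Of the 4, MIR398c had only 0.0864 FPKM in cytokinin roots and 0.0248 FPKM in control roots, and MIR408 is given below. For both precursors the length used to estimate fragments was a set minimum, so no fragment number or interval is given. LAC13, a laccase gene, was just past 2-fold, with 12.8 FPKM in cytokinin roots and 6.31 FPKM in control roots. FSD1, an iron superoxide dismutase, had 652 FPKM in cytokinin roots and 182 FPKM in control roots, beside 552 FPKM in JA/cytokinin roots and 41.1 FPKM in JA roots. CSD1 and CSD2, the copper/zinc superoxide dismutases of cytosol and plastid, had 290 and 88.9 FPKM in cytokinin roots and 620 and 159 FPKM in control roots. CCS, their copper chaperone, had 35.9 FPKM in cytokinin roots and 64.1 FPKM in control roots, and all 3 were also lower in JA/cytokinin than in JA roots. COPT2, a copper importer, had 22.5 FPKM in cytokinin roots and 72.8 FPKM in control roots. The MIR408 precursor gene, known to answer to low copper, had 4.72 FPKM in cytokinin roots and 1.18 FPKM in control roots, and 8.11 FPKM in JA/cytokinin roots against 1.26 FPKM in JA roots. Precursors of MIR398, a regulator of CSD1 and CSD2, gave unlike values. MIR398a was listed at 109 FPKM in cytokinin roots and at 0 in the other libraries, and MIR398b at 0 in cytokinin and JA roots, 22.4 FPKM in control roots and 15.8 FPKM in JA/cytokinin roots.

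Gene families were then read by their annotation, and those named were chosen from 133 families of at least 15 members after their values were seen. Of 37 MATE efflux genes of the main set, transporters of small organic compounds, 12 were at least 2-fold higher and 1 lower, beside 3.51% and 7.26% of the main set, with a median log2 ratio of 0.51. AT1G33100 had 21.8 FPKM in cytokinin roots and 6.74 FPKM in control roots, and EDS5, which exports the salicylate precursor from plastids, 38.6 and 17.98 FPKM. With JA 7 of the 37 were higher and 2 lower, beside 6.24% and 6.85% of the main set. Of 63 UDP-glycosyltransferase genes 9 were at least 2-fold higher and 2 lower, beside 3.51% and 7.26% of the main set. Among the higher ones was UGT84A1, with 33.4 FPKM in cytokinin roots and 14.1 FPKM in control roots. Of 17 genes annotated as disease resistance proteins of the CC-NBS-LRR class, 6 were at least 2-fold lower and 0 higher, beside 7.26% and 3.51% of the main set. Their median log2 ratio was -0.64. In JA/cytokinin against JA roots 6 were lower, beside 6.85% of the main set, and they need not be the same ones. Families such as these hold close copies whose reads can be shared, and no test was made of them.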
